A study of Mus musculus with 12 samples.

Results

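The genes described here are 10 dual-specificity phosphatase genes, Dusp1, Dusp2, Dusp3, Dusp4, Dusp5, Dusp6, Dusp7, Dusp8, Dusp10 and Dusp16. They were chosen by name, with earlier results of these data known. All 10 were found among the 24675 genes measured, each with 1 probe set. Expression was measured on 12 Affymetrix whole-transcript arrays from primary bone marrow-derived macrophages of wild-type mice aged 8 to 10 weeks. The marrow cells were grown for 7 days with L cell-conditioned medium as the source of the growth factor M-CSF, plated in wells and moved to DMEM alone for 1 h. Hepcidin, the peptide hormone that binds the iron exporter ferroportin, was then added, and its controls are labelled PBS. The 4 groups of 3 arrays are PBS at 1 h, hepcidin at 1 h, PBS at 3 h and hepcidin at 3 h, and the cells of all 4 had lost serum and M-CSF alike. The dose is not settled, since the labels give 1 µg/ml in one protocol and 10 µg/ml in another. Whether arrays within a group stem from different mice or cultures is not stated in the labels, so every p-value here is set against the array-to-array spread alone, and that spread may be technical.

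Mitogen-activated protein (MAP) kinases, the ERK, JNK and p38 families, are switched on when a kinase above them phosphorylates a threonine and a tyrosine in their activation loop. Dual-specificity phosphatases remove both phosphates and so end the signal. Several of their genes are themselves early targets of MAP kinase signalling, which makes a negative feedback loop, and in macrophages Dusp1 is known for restraining cytokine production after Toll-like receptor stimulation. Dusp1, Dusp2, Dusp4 and Dusp5 encode inducible phosphatases of the nucleus. Dusp6 and Dusp7 encode cytoplasmic phosphatases with a preference for ERK, and Dusp8, Dusp10 and Dusp16 encode phosphatases that act on JNK and p38. Dusp3 encodes VHR, a small atypical member without the kinase-binding domain of the others.

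The arrays resembled each other closely, with medians from 4.82 to 4.93 on the log2 scale and correlations across genes of 0.994 to 0.997 within a group. Macrophage markers stood well above the array median in every group, 9 of 9 on the array, with a mean level per array between 10.8 and 11.0 on the log2 scale. At 3 h the macrophage genes Cd14 (0.80) and Spi1 (0.30) rose and Mertk (-1.08) and Mrc1 (-0.35) fell with hepcidin, in log2 differences. Of 47 genes that mark stroma, mast cells, erythroid cells, lymphocytes, neutrophils or dendritic cells, limma called 0 between hepcidin and PBS at either time. Over all genes 0.559% were called at 1 h and 5.33% at 3 h. An unadjusted p under 0.05 was found for 4 of the 47 at 1 h and 7 at 3 h, beside 6.82% and 16.9% of all genes. In hepcidin from 1 h to 3 h limma called 2 of the 9 macrophage markers higher and 3 lower. An unadjusted p under 0.05 was found for 8 of the 9, beside 16.6% of all genes. In the same comparison limma called 2 of the 47 other markers (4.26%), beside 5.05% of all genes. They were the neutrophil marker Mpo, which fell by 0.62, and the mast cell marker Kit, which fell by 0.73. The mean level of these lists per array lay between 3.56 and 4.80. Their part in the results below was not tested. In bulk RNA a change in the share of cells and a change in the RNA of each cell cannot be told apart. One array feature touches several of the phosphatase genes. For Dusp1, Dusp4, Dusp6 and Dusp7 the array numbered 1 was the lowest of its group in all 4 groups, as it was for 4.20% of all genes, and no label says what the numbers share.

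With hepcidin some phosphatase genes were higher and others lower. The 4 nuclear inducible genes were higher on every hepcidin array than on every PBS array at both times, by 1.31-fold to 1.85-fold. The cytoplasmic ERK phosphatase genes Dusp6 and Dusp7 fell at 3 h, 1.82-fold and 1.79-fold, and at 1 h their groups overlapped. Dusp16, a JNK and p38 phosphatase gene, rose 1.75-fold at 3 h. A gene is said to have risen or fallen where its adjusted p was under 0.05 in limma, with Benjamini-Hochberg adjustment over all 24675 genes. By that rule 2 of the 10 genes rose and 0 fell at 1 h, where 0.559% of all genes were called, 0.527% higher and 0.0324% lower. At 3 h 4 rose and 2 fell, where 5.33% of all genes were called, 2.8% higher and 2.53% lower. The median log2 difference of the 10 was 0.39 at 1 h and 0.34 at 3 h, beside -0.00225 and 0.0159 over all genes. An unadjusted p under 0.05 was found for 6 of the 10 at 1 h and 9 of the 10 at 3 h, beside 6.82% and 16.9% of all genes. At 1 h the 2 groups did not overlap in 6 of the 10, as in 12.3% of all genes (6.47% higher, 5.86% lower). All 6 were higher with hepcidin. At 3 h they did not overlap in 9 of the 10, 6 higher and 3 lower, as in 21.7% of all genes (11.8% higher, 9.9% lower).

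**Figure D1:**
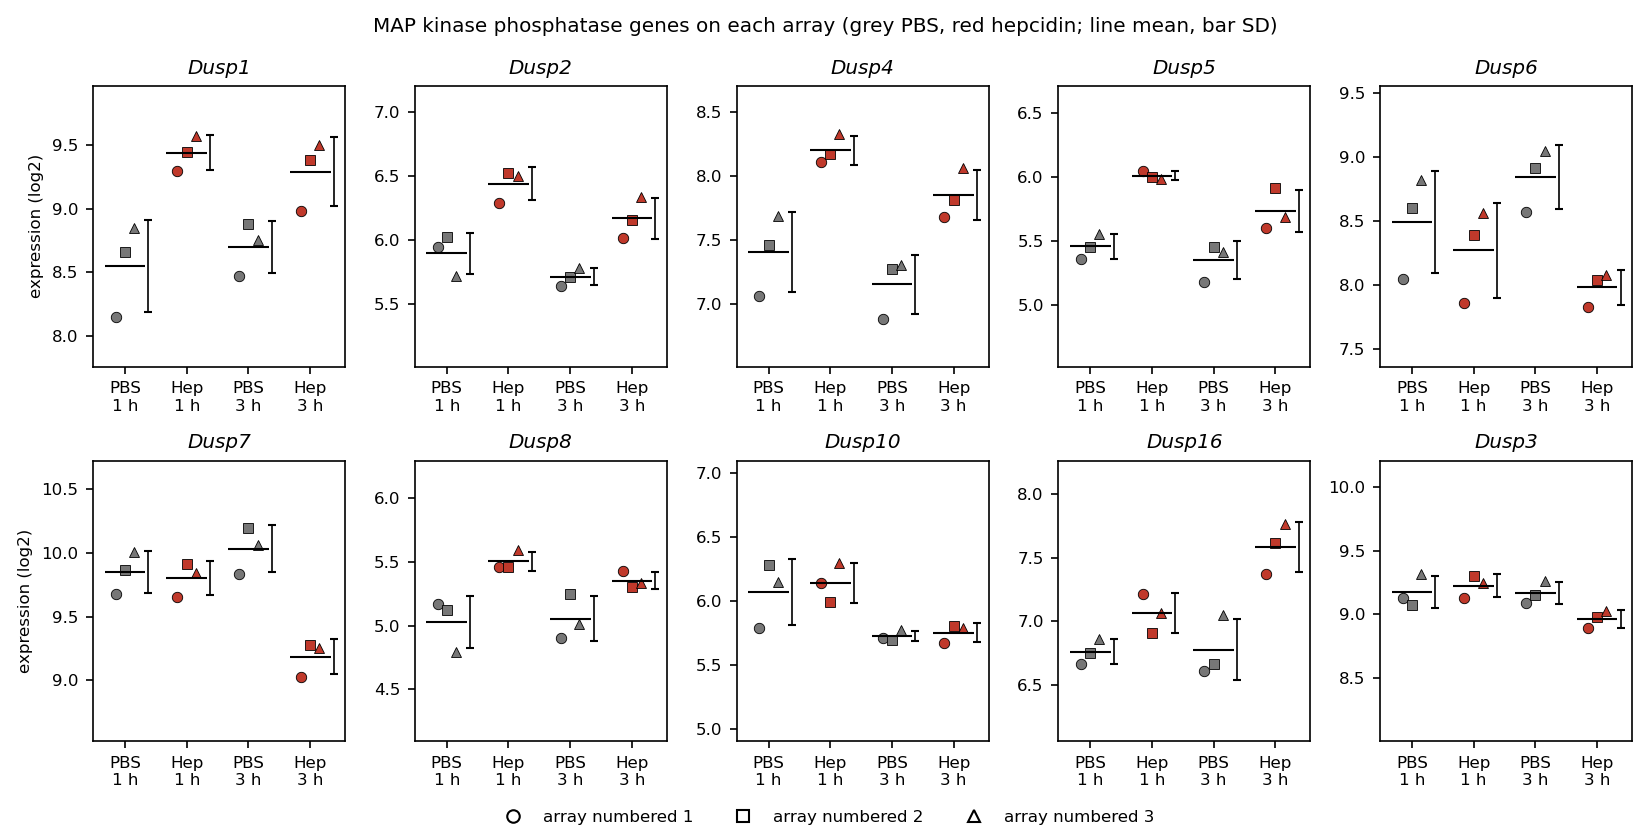
Expression of the 10 phosphatase genes on each of the 12 arrays. The horizontal axis gives the 4 groups and the vertical axis the log2 expression value, with the same span in every panel; grey is PBS, red is hepcidin, the marker shape gives the array's number in the labels, the line is the mean and the bar the SD of 3 arrays. Dusp1, Dusp2, Dusp4 and Dusp5 lie higher with hepcidin at both times, Dusp6 and Dusp7 lie lower at 3 h, and Dusp16 is highest with hepcidin at 3 h.

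Among the nuclear phosphatase genes, Dusp5, whose product is selective for ERK, gave the lowest adjusted p at 1 h. Its log2 values were 5.36, 5.45 and 5.56 with PBS and 6.05, 6.00 and 5.98 with hepcidin at 1 h. At 3 h they were 5.18, 5.45 and 5.41 with PBS and 5.6, 5.92 and 5.69 with hepcidin. Every hepcidin array therefore lay above every PBS array of its time, and the hepcidin arrays of 1 h were the tightest group of this gene (SD 0.034, n = 3). Dusp5 rose by 0.55 at 1 h (SE 0.10, 1.47-fold, limma adjusted p = 0.0202) and by 0.39 at 3 h (SE 0.10, 1.31-fold, adjusted p = 0.0381). The call at 1 h was lost without PBS array 1 or 2 of 1 h or any of the 3 hepcidin arrays of 1 h, with an adjusted p of up to 0.128. With 1 array left out, the call at 3 h held only without PBS array 1 of 1 h, PBS array 3 of 1 h or hepcidin array 1 of 3 h (up to 0.139 otherwise). It was also lost when only the groups compared were fitted and when each array was centred on its median.

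Dusp2, which encodes PAC1, a phosphatase found mainly in immune cells, rose at both times as well. Its log2 values were 5.95, 6.03 and 5.71 with PBS and 6.29, 6.53 and 6.51 with hepcidin at 1 h. At 3 h they were 5.64, 5.71 and 5.78 with PBS and 6.02, 6.15 and 6.34 with hepcidin. The groups did not overlap at either time. The rise was 0.55 at 1 h (SE 0.10, 1.46-fold, limma adjusted p = 0.0413) and 0.46 at 3 h (SE 0.10, 1.37-fold, adjusted p = 0.0234). With 1 array left out, the call at 1 h held only without hepcidin array 1 of 1 h, hepcidin array 1 of 3 h or hepcidin array 3 of 3 h (up to 0.204 otherwise). It was also lost when only the groups compared were fitted and after a second quantile normalization. At 3 h it was lost without any 1 of the 3 PBS arrays of 3 h or without hepcidin array 2 or 3 of 3 h (up to 0.0997).

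Dusp4, which encodes MKP-2, an inducible nuclear phosphatase of ERK and JNK, had log2 values of 7.06, 7.46 and 7.69 with PBS and 8.11, 8.17 and 8.33 with hepcidin at 1 h. At 3 h it stood at 6.88, 7.27 and 7.30 with PBS and at 7.68, 7.81 and 8.06 with hepcidin. All hepcidin arrays lay above all PBS arrays of both times except that hepcidin array 1 of 3 h lay below PBS array 3 of 1 h. Dusp4 rose at 3 h by 0.70 (SE 0.16, 1.62-fold, limma adjusted p = 0.0232). At 1 h the difference was larger, 0.80 (SE 0.16, 1.74-fold) but did not pass (limma adjusted p = 0.0534). The call at 3 h was lost without PBS array 1 of 3 h, hepcidin array 2 of 3 h or hepcidin array 3 of 3 h (up to 0.104). At 1 h the gene passed without PBS array 3 of 1 h or PBS array 1 of 3 h, with an adjusted p down to 0.0239. It also passed at 1 h with the array number added to the fit as a block (limma adjusted p = 0.00136).

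Dusp1, which encodes MKP-1, a phosphatase of p38 and JNK, showed the largest difference of the 10 at 1 h and passed at neither time. Its log2 values were 8.15, 8.66 and 8.85 with PBS and 9.30, 9.44 and 9.57 with hepcidin at 1 h. At 3 h they were 8.47, 8.88 and 8.75 with PBS and 8.98, 9.38 and 9.50 with hepcidin. The groups did not overlap at either time, and the PBS arrays of 1 h were the most scattered (SD 0.36, n = 3). The difference was 0.89 at 1 h (SE 0.18, 1.85-fold, 95% interval 0.50 to 1.28, limma adjusted p = 0.0567) and 0.59 at 3 h (SE 0.18, 1.5-fold, 0.20 to 0.98, adjusted p = 0.0897). At 1 h it passed without PBS array 3 of 1 h or hepcidin array 1 of 3 h (down to 0.0324), and at 3 h without PBS array 1 of 1 h or hepcidin array 1 of 3 h (down to 0.0379). With the array number added to the fit as a block it passed at 1 h (limma adjusted p = 0.00115) and at 3 h (0.00389).

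Since these 4 genes were all higher with hepcidin, the 250 bases before the RefSeq start site (assembly GRCm38.p6) of the genes were searched on both strands. The motifs were the cyclic AMP response element TGACGTCA, its core TGACG, the AP-1 site TGANTCA, the EGR site GCGTGGGCG, the NF-kB consensus and the CArG box bound by serum response factor. The table holds this window for 9 of the 10 genes, and Dusp4 is the one without. The full element contains the 5-base core on each strand, so the 2 motifs overlap wherever the full one occurs. Shown here are Dusp1, Dusp2 and Dusp5, the nuclear phosphatase genes that the table holds, 5′ to 3′ on the strand of the gene and ending at the base before the start site, with motif matches in capitals. Dusp1 lies at chr17:26508473-26508722 (minus strand), Dusp2 at chr2:127335909-127336158 (plus strand) and Dusp5 at chr19:53528895-53529144 (plus strand).
Dusp1: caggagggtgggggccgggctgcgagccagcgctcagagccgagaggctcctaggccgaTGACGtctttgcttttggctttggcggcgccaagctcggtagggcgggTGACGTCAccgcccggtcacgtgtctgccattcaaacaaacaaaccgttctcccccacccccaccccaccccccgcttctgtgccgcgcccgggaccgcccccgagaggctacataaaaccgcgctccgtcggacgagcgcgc
Dusp2: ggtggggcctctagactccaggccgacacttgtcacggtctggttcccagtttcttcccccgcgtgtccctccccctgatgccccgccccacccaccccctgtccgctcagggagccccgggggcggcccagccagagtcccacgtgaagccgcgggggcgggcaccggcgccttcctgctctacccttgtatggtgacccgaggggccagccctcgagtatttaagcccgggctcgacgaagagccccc
Dusp5: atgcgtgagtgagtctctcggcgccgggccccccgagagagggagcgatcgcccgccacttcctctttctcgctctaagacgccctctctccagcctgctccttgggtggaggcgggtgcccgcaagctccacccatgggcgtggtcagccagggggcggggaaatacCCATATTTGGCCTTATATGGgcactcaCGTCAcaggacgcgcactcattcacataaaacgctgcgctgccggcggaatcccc

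Dusp1 carries the full element TGACGTCA with its first base 143 bases before the start site, and a separate 5-base core at 191. Dusp5 carries 2 adjoining CArG boxes with their first bases 82 and 72 bases before the start site, and a 5-base core at 55 on the opposite strand. Dusp2 has no match to any of the 6 motifs in this window. Across all 9 windows the full element was found in Dusp1 and Dusp8, which has it at 107 and 63, and in 1.55% of the 32851 windows of the whole table. The start used for Dusp8 lies 623 bases inside the outermost start that RefSeq gives the gene. For Dusp3 and Dusp7 that distance is 2222 and 72 bases. The 5-base core was found in Dusp1, Dusp5, Dusp8 and Dusp16 and in 17.8% of all windows, and the CArG box in Dusp5 and in 1.47%. The AP-1 site (6.75% of all windows), the NF-kB consensus (3.90%) and the EGR site (0.536%) were found in 0 of the 9. The 9 windows held 56.4% to 77.2% G and C, beside a median of 52.4% over all windows, and their matches are a description of letters, not of binding.

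**Figure D2:**
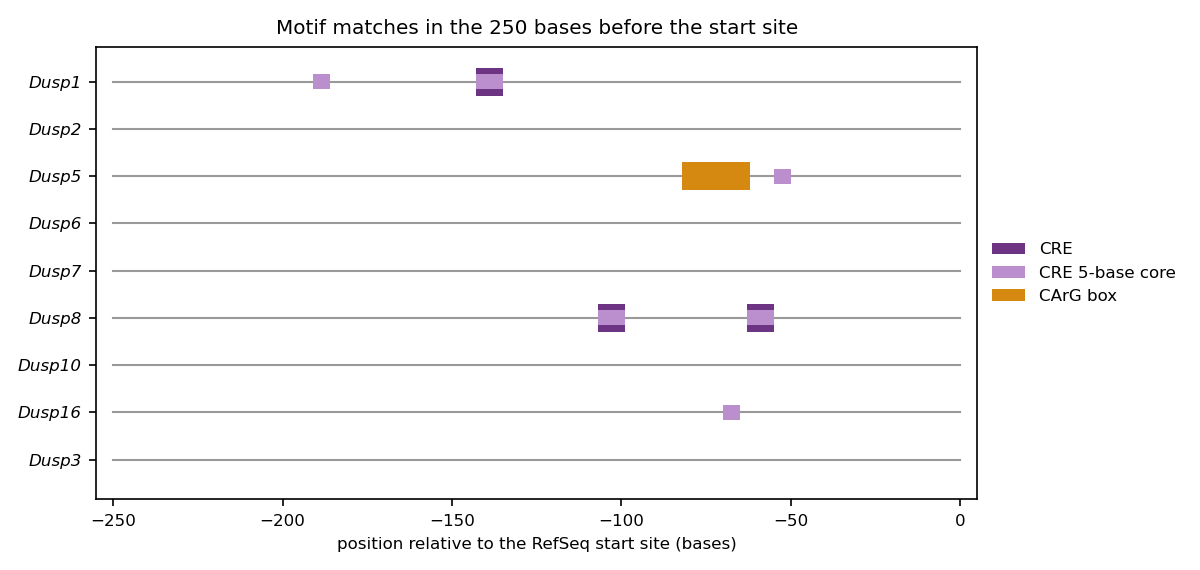
Motif matches in the 250 bases before the start site of 9 phosphatase genes. The horizontal axis gives the position in bases relative to the start site, each row is a gene, and coloured blocks mark the full cyclic AMP response element (CRE), its 5-base core and the CArG box. Dusp1 and Dusp8 hold the full element, Dusp5 holds the CArG boxes, and Dusp2, Dusp3, Dusp6, Dusp7 and Dusp10 hold no match.

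Of the cytoplasmic ERK phosphatase genes, Dusp6 and Dusp7 fell at 3 h and did not pass at 1 h. Dusp7, which encodes MKP-X, had log2 values of 9.68, 9.86 and 10.0 with PBS and 9.65, 9.91 and 9.84 with hepcidin at 1 h, so that the groups lay over each other. At 3 h PBS stood at 9.83, 10.2 and 10.1 and hepcidin at 9.03, 9.28 and 9.26. The hepcidin arrays of 3 h lay below all 9 other arrays. The difference was -0.05 at 1 h (SE 0.12, 95% interval -0.30 to 0.21, limma adjusted p = 0.987). At 3 h Dusp7 fell by 0.84 on the log2 scale (SE 0.12, 1.79-fold lower, adjusted p = 7.82e-04), and this call held whichever of the 12 arrays was left out (adjusted p up to 0.00536). The difference between the 2 effects was itself past the threshold at -0.80 (SE 0.17, adjusted p = 0.0435), 1 of the 10 genes where 1.03% of all genes were called (0.523% higher, 0.507% lower). That call held only without PBS array 3 of 1 h, hepcidin array 1 of 1 h or PBS array 1 of 3 h, and the adjusted p reached 0.123 with another array left out.

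Dusp6, which encodes MKP-3, the classic feedback phosphatase of ERK, was the most scattered of the 10 genes within groups. Its log2 values were 8.05, 8.60 and 8.82 with PBS and 7.85, 8.39 and 8.57 with hepcidin at 1 h. At 3 h they were 8.57, 8.91 and 9.05 with PBS and 7.82, 8.04 and 8.08 with hepcidin. The groups overlapped at 1 h, while at 3 h every hepcidin array lay below every PBS array. The difference was -0.22 at 1 h (SE 0.21, limma adjusted p = 0.931), and at 3 h Dusp6 fell by 0.86 (SE 0.21, 1.82-fold lower, adjusted p = 0.0327). The call at 3 h was lost without PBS array 2 or 3 of 3 h or any 1 of the hepcidin arrays of 3 h (up to 0.134). The difference between the effects at 3 h and 1 h, -0.64 (SE 0.30, adjusted p = 0.502), did not pass. With the array number as a block it passed narrowly (limma adjusted p = 0.0498). The window before the start site of Dusp6, chr10:99262981-99263230 (plus strand), is shown because this gene moved against the nuclear genes, and it holds no match to the motifs above.
Dusp6: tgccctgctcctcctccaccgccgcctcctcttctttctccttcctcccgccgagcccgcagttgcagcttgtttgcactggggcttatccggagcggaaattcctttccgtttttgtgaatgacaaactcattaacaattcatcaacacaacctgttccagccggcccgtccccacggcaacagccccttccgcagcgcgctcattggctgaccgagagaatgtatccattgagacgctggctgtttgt

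Of the JNK and p38 phosphatase genes, Dusp16, which encodes MKP-7, was the only one to pass. Its log2 values were 6.67, 6.75 and 6.86 with PBS and 7.22, 6.91 and 7.07 with hepcidin at 1 h. At 3 h they were 6.61, 6.67 and 7.05 with PBS and 7.37, 7.61 and 7.76 with hepcidin. The groups did not overlap at either time, and the hepcidin arrays of 3 h lay above all 9 others. Dusp16 rose at 3 h by 0.81 (SE 0.13, 1.75-fold, limma adjusted p = 0.00255), a call that held whichever of the 12 arrays was left out (up to 0.0166). At 1 h the difference was 0.30 (SE 0.13, 1.23-fold, adjusted p = 0.703). The difference between the 2 effects, 0.50 (SE 0.19, adjusted p = 0.347), did not pass. Its window, chr6:134792629-134792878 (minus strand), holds a 5-base core with its first base 70 bases before the start, and this start lies 14435 bases inside the outermost start that RefSeq gives the gene.
Dusp16: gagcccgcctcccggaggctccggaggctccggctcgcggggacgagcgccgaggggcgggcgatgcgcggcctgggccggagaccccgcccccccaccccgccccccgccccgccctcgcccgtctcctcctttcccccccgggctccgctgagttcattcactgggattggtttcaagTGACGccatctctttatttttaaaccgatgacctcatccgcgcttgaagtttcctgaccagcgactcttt

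Dusp8, a phosphatase of JNK and p38 best known from brain, lay close to the array median. Its log2 values ran from 4.80 to 5.17 with PBS and from 5.46 to 5.59 with hepcidin at 1 h, and from 4.91 to 5.25 with PBS and from 5.30 to 5.43 with hepcidin at 3 h. In each PBS group 1 array of 3 lay below its array median, and the groups did not overlap at either time. The differences, 0.47 at 1 h (SE 0.11, limma adjusted p = 0.122) and 0.30 at 3 h (SE 0.11, adjusted p = 0.167), did not pass. Dusp10, which encodes MKP-5, was the 1 gene of the 10 whose groups overlapped at both times. Its values ran from 5.79 to 6.28 with PBS and from 5.99 to 6.30 with hepcidin at 1 h, and from 5.70 to 5.77 and 5.67 to 5.81 at 3 h. The difference was 0.07 at 1 h (95% interval -0.19 to 0.32) and 0.03 at 3 h (-0.23 to 0.28). The intervals bound the change but do not show that there was none.

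Dusp3, the atypical member, differed little. Its log2 values ran from 9.08 to 9.32 with PBS and from 9.13 to 9.30 with hepcidin at 1 h, and the groups overlapped. At 3 h PBS ran from 9.09 to 9.26 and hepcidin from 8.89 to 9.03, with no overlap. The differences were 0.05 at 1 h (SE 0.08, limma adjusted p = 0.970) and -0.20 at 3 h (SE 0.08, adjusted p = 0.227), and neither passed.

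**Figure D3:**
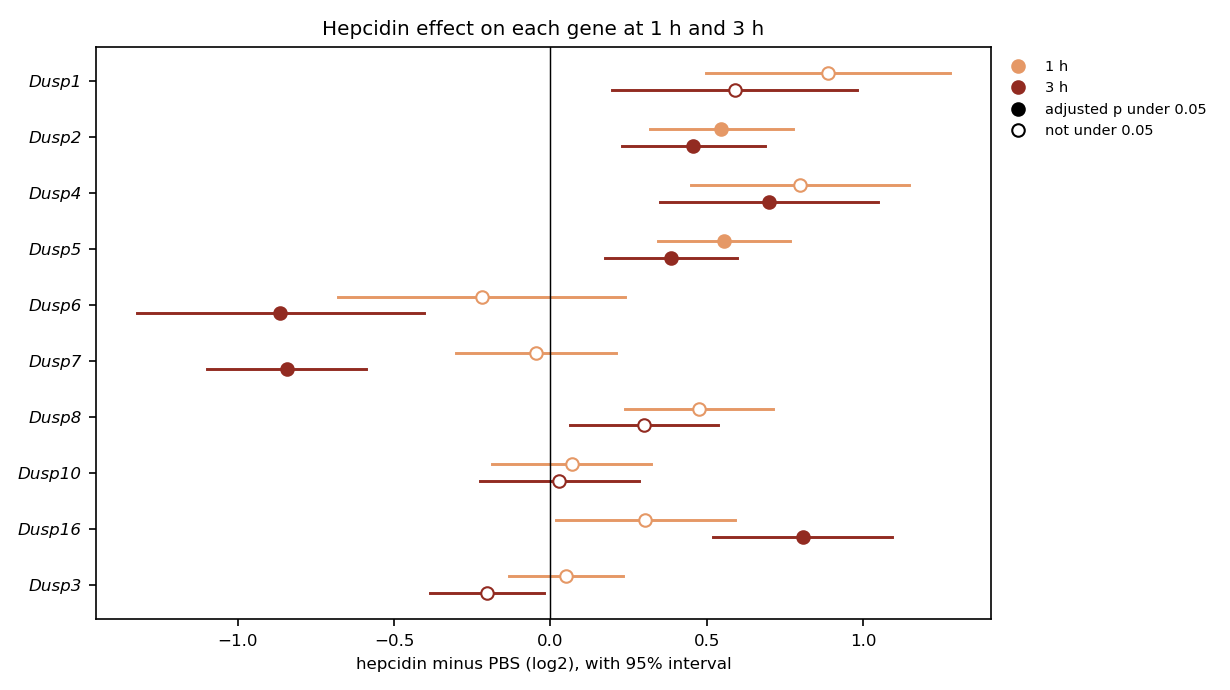
Hepcidin effect on the 10 phosphatase genes. The horizontal axis is the log2 difference between hepcidin and PBS with its 95% interval from limma, light at 1 h and dark at 3 h; filled points passed an adjusted p of 0.05 and open points did not. Effects at 3 h run from -0.86 for Dusp6 to 0.81 for Dusp16.

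Between the 2 PBS groups no phosphatase gene passed the test. From PBS at 1 h to PBS at 3 h limma called 0 of the 10, where 0.45% of all genes were called (0.207% higher, 0.243% lower), and 1 of the 10 had an unadjusted p under 0.05, beside 10.6% of all genes. The largest shifts in PBS were 0.35 for Dusp6 (adjusted p = 0.634) and -0.35 for Dusp10 (adjusted p = 0.265), and Dusp10 was the 1 gene of the 10 with separate PBS groups, a share of 17.7% over all genes (8.66% higher, 9.04% lower). From hepcidin at 1 h to hepcidin at 3 h 1 gene rose and 1 fell, where 5.05% of all genes were called (2.44% higher, 2.61% lower). These 2 groups did not overlap in 7 of the 10, as in 20.1% of all genes (10.5% higher, 9.56% lower). Of the 7, Dusp16 was higher at 3 h, and Dusp3, Dusp4, Dusp5, Dusp7, Dusp8 and Dusp10 were lower. An unadjusted p under 0.05 was found for 7 of the 10, beside 16.6% of all genes. Dusp7 fell by 0.62 (SE 0.12, adjusted p = 0.00844), a call kept whichever array was left out. Dusp16 rose by 0.52 (SE 0.13, adjusted p = 0.0417), a call that held only without hepcidin array 1 of 1 h, PBS array 1 of 3 h, PBS array 3 of 3 h or hepcidin array 1 of 3 h (up to 0.168 otherwise). The 4 nuclear genes stood lower at 3 h than at 1 h of hepcidin without passing, by -0.35 for Dusp4, -0.28 for Dusp5, -0.27 for Dusp2 and -0.15 for Dusp1 (adjusted p from 0.153 to 0.757). With the array number as a block Dusp4, 1 of these 4, passed (limma adjusted p = 0.0394). The difference between the hepcidin effects at 3 h and 1 h likewise lay below 0 for all 4, from -0.30 to -0.09, with adjusted p from 0.749 to 0.932. These comparisons share arrays with those of hepcidin against PBS.

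The order of the group means follows from these values. In Dusp2, Dusp4 and Dusp5 it ran from PBS at 3 h, the lowest, through PBS at 1 h and hepcidin at 3 h to hepcidin at 1 h. In Dusp7 and Dusp6 it ran from hepcidin at 3 h through hepcidin at 1 h and PBS at 1 h to PBS at 3 h, and in Dusp16 from PBS at 1 h through PBS at 3 h and hepcidin at 1 h to hepcidin at 3 h. In none of these 6 genes did the difference between the PBS groups pass the test. The step between the hepcidin groups did not pass in Dusp2, Dusp4, Dusp5 and Dusp6. That between hepcidin and PBS at 1 h did not pass in Dusp6 and Dusp7. Steps between PBS and hepcidin of different times were not tested.

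For each of the 6 genes past the threshold, the genes with the most similar course over the 12 arrays were found by the root mean square difference after each gene was centred on its own mean. The arrays are shared, so these values describe likeness and carry no test. Nearest to Dusp4 (SD over arrays 0.445) were Gadd45a at 0.132 and Il1a at 0.172, and the third was Dusp1 at 0.175, another gene of the set. Nearest to Dusp5 (SD 0.276) were Sgk1 at 0.107, Fam104a at 0.109 and C9orf72 at 0.117. Sgk1 (0.15) stood near Dusp2 as well, after Slfn2 (0.141) and Ifrd2 (0.147), which beside an SD of 0.298 is a looser likeness. Dusp7 (SD 0.343) had the closest neighbours, Gpr155 at 0.0919, Cttnbp2nl at 0.0967 and Stard8 at 0.0980, each of them lower with hepcidin at 3 h by 0.71 to 0.88 in size of the log2 difference. Dusp16 (SD 0.364) was followed by Malt1 at 0.126, Rapgef2 at 0.127 and Fgr at 0.129. Dusp6 (SD 0.403) was nearest to Tcp11l2 at 0.161, Peak1os at 0.173 and Irf8 at 0.188.

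Other genes of the MAP kinase pathway, together with other dual-specificity phosphatase genes, were read from 9 lists holding 104 genes on the array. At 1 h 6 of them rose and 0 fell (5.77%, beside 0.559% of all genes). At 3 h 7 rose and 5 fell (11.5%, beside 5.33%). Their median log2 difference was 0.01 at 1 h and 0.03 at 3 h. The difference between the effects at 3 h and 1 h passed above 0 in 1 of them and below 0 in 8 (8.65%, beside 1.03% of all genes). Among other phosphatase genes 1 passed the test. Of 20 atypical and related dual-specificity phosphatase genes 0 were called at 1 h and 1 at 3 h, beside 0.559% and 5.33% of all genes. An unadjusted p under 0.05 was found for 2 at 1 h and 3 at 3 h, beside 6.82% and 16.9% of all genes. The gene called was Dusp22, whose product modulates JNK signalling, which fell by 0.39 (SE 0.06, limma adjusted p = 0.00202). Dusp9, the third cytoplasmic ERK phosphatase gene beside Dusp6 and Dusp7, differed by 0.13 at 1 h (limma adjusted p = 0.889) and 0.23 at 3 h (adjusted p = 0.246, unadjusted p = 0.0357). At 3 h every Dusp9 value with hepcidin lay above every value with PBS, as in 11.8% of all genes. Of 8 other phosphatase genes that act on MAP kinases limma called 0 at either time. Beside the same shares of all genes, 0 at 1 h and 1 at 3 h had an unadjusted p under 0.05.

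Of 12 MAP kinase genes limma called 0 at 1 h and at 3 h, with 1 and 2 at an unadjusted p under 0.05, beside 0.559% and 5.33% of all genes called and 6.82% and 16.9% at that unadjusted p. Of 6 MAP kinase kinase genes 1 fell at 3 h, Map2k6, which encodes an activator of p38, by 1.17 on the log2 scale (SE 0.16, 2.25-fold lower, adjusted p = 7.64e-04). Of 17 upstream genes Map3k8, which encodes TPL2, the kinase that links Toll-like and TNF receptors to ERK, rose at 1 h by 0.93 (SE 0.07, adjusted p = 1.27e-05). At 3 h it stood at 0.21 (adjusted p = 0.131), and the difference between times passed at -0.72 (adjusted p = 0.00448). Map3k1 fell at 3 h by 0.61 (adjusted p = 1.23e-04) and Map3k6 rose by 0.34 (adjusted p = 0.0155). The difference between times also passed for Map2k6, at -1.13 (limma adjusted p = 0.0378), and for Map3k1, at -0.59 (limma adjusted p = 0.0118). Of 7 genes for kinases that MAP kinases activate, Mapkapk2, the p38-activated kinase that stabilises cytokine mRNAs, rose at 3 h by 0.83 (SE 0.08, adjusted p = 4.37e-05) and Mknk2, a kinase of the translation factor eIF4E, fell by 0.56 (adjusted p = 0.00122). The calls of Map2k6, Map3k1, Mapkapk2 and Mknk2 at 3 h and of Map3k8 at 1 h against PBS held under all 19 alternatives run. The call of Map3k6 was lost without PBS array 1 of 3 h, PBS array 2 of 3 h or hepcidin array 3 of 3 h (up to 0.0780).

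Of 10 Sprouty, Spred and Ras-GAP genes limma called 0 at 1 h, with 4 at an unadjusted p under 0.05 (6.82% of all genes). At 3 h 1 fell, where 2.53% of all genes fell. It was Rasa1, a brake on Ras, which fell by 0.42 (SE 0.10, limma adjusted p = 0.0291). Rasa1 lost its call without PBS array 2 or 3 of 3 h or any 1 of the hepcidin arrays of 3 h (up to 0.130). Of 23 transcription factor and early genes that respond to MAP kinases 5 rose at each time and 0 fell. Over all genes 0.527% rose at 1 h and 2.8% at 3 h. At 1 h they were Ier3 (1.98), Zfp36 (1.51), Junb (1.09), Fos (0.88) and Myc (0.85), and at 3 h Ier3 (0.95), Zfp36 (0.51), Phlda1 (0.50), Jund (0.49) and Junb (0.43), all in log2 differences. Jund lies outside the rule for named genes and was added after its value was seen, to complete the count. The difference between the 2 effects passed for 4 of the 23, at -1.03 for Ier3, -1.0 for Zfp36, -0.66 for Junb and -0.52 for Elk3 (adjusted p = 0.0358, 0.00224, 0.0281 and 0.0365), of which Elk3 was likewise added after its value was seen. None of the 4 nuclear phosphatase genes passed that test. Fos lost its call at 1 h without hepcidin array 2 or 3 of 1 h (up to 0.0839). At 3 h Junb lost it without PBS array 2 or 3 of 3 h or hepcidin array 3 of 3 h, and Phlda1 without PBS array 1 of 3 h or hepcidin array 3 of 3 h (up to 0.0863).

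**Figure D4:**
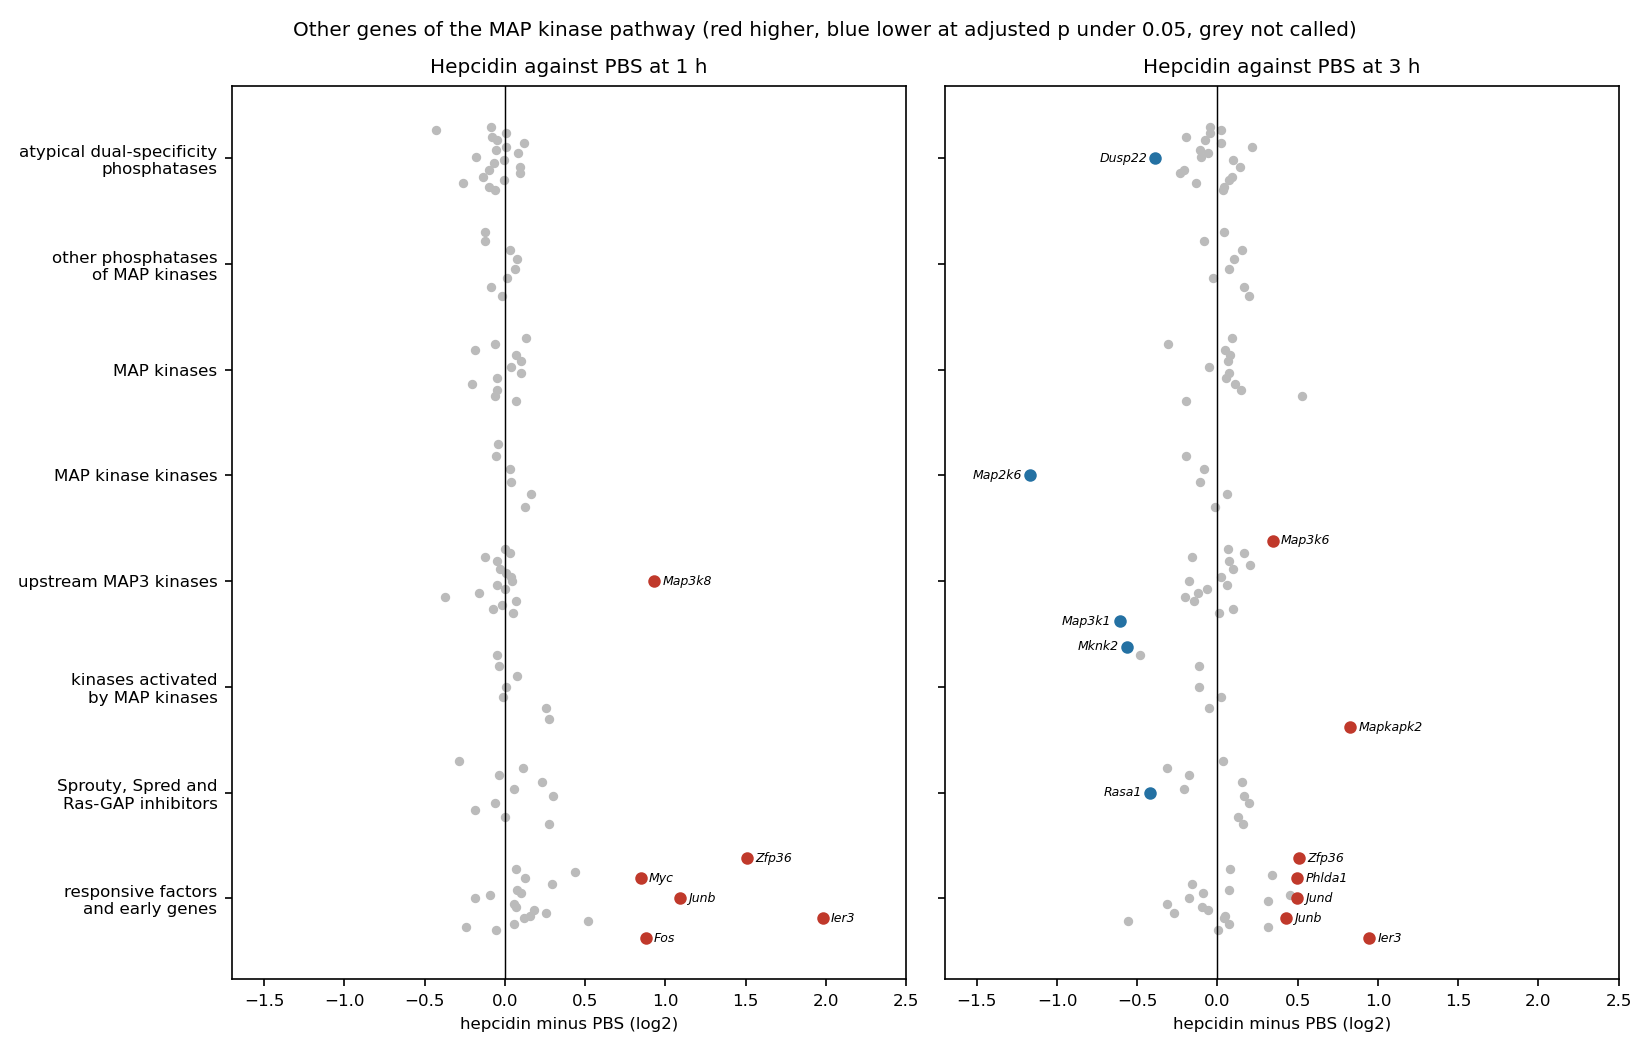
Other genes of the MAP kinase pathway and other dual-specificity phosphatase genes with hepcidin at 1 h (left) and 3 h (right). The horizontal axis is the log2 difference between hepcidin and PBS, each row is a list (Dusp9, alone in its list, is not drawn) and each point a gene; red points rose, blue points fell at an adjusted p under 0.05 and grey points did not pass. At 1 h the named genes are Map3k8 and 5 early genes, and at 3 h Map2k6, Map3k1, Mknk2, Rasa1 and Dusp22 lie below 0.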

How the data were processed

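Total RNA was labelled by the Affymetrix whole-transcript assay and hybridised to 12 arrays, 3 in each of 4 groups. The deposited values are log2 expression values made by the authors, and RMA and Partek are named, without versions, in the submitters' processing notes. That the log base is 2 was read from the range of the values, 2.00 to 13.4, since no label states it, and no detection calls were used. Of 25429 probe sets 24675 have 1 gene symbol in the platform annotation and 754 have none and were left out. For the genome build behind the probe annotation the sources used here give no name.

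The log2 values, as deposited, entered the fit without further normalization. Group means were fitted with limma 3.58.1 in R 4.3.3 (lmFit and eBayes, 4 groups in 1 fit, 8 residual and 4.11 prior degrees of freedom), and 5 comparisons were tested, each with Benjamini-Hochberg adjustment over all 24675 genes and a threshold of 0.05. With 3 arrays a group, their number limits the precision. The script was tested on simulated data. The phosphatase genes and all gene lists were chosen with earlier results of these data known. Named were all 10 phosphatase genes, up to 6 genes per pathway list that passed at 1 h or 3 h, the 3 genes nearest to each phosphatase gene that passed, the macrophage markers that passed and any other marker that passed; predicted genes and numbered clones were skipped. The 19 alternatives were a replicate block, another prior, only the groups compared, genes above the median level, median centring, a second quantile normalization, the table with its unnamed probe sets and each of the 12 arrays left out. The replicate number is not in the model, since no label says what it shares and not every pair of same-numbered arrays reached a correlation of deviations of 0.1.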

Additional observations from a re-analysis of the deposited data

Results flagged for a closer look

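The hepcidin effect on Dusp7 differed between the 2 times by the test of the difference itself: the effect at 3 h minus that at 1 h was -0.80 on the log2 scale (SE 0.17, limma adjusted p = 0.0435). That call held in 9 of the 19 alternatives and in 3 of the 12 fits with 1 array left out (limma adjusted p up to 0.123). It was lost when each array was centred on its median.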

How the results depend on the processing

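The fall of Dusp7 and the rise of Dusp16 against PBS at 3 h passed under all 19 alternatives, as did the fall of Dusp7 from 1 h to 3 h of hepcidin. The number of phosphatase genes called at 1 h, 2, was 4 with a replicate block, with a trended and robust prior, with genes above the median level and with median centring, and 1 with only the groups compared and with quantile normalization again. For the difference between times it was 2 with the replicate block and 0 with median centring, and for hepcidin over time 1 with only the groups compared and with median centring. Over all genes, only the groups compared gave 805 at 3 h, 616 for hepcidin over time and 7 for PBS over time. A trended and robust prior gave 433 for the difference and 319 for PBS over time, and genes above the median level gave 412 and 333. For PBS over time the replicate block gave 240 and median centring 64. The cause of these shifts was not tested. With 1 array left out, phosphatase genes called ranged from 0 to 3 at 1 h, 2 to 7 at 3 h, 0 to 1 for the difference, 0 to 0 for PBS over time and 1 to 2 for hepcidin over time. All genes called ranged from 99 to 139, 837 to 1287, 141 to 234, 23 to 126 and 721 to 1178 in the same order. At 3 h the count was 2 without hepcidin array 2 or 3 of 3 h, and 3 without any 1 PBS array of 3 h. At 1 h it was 0 without PBS array 1 or 2 of 1 h or hepcidin array 2 or 3 of 1 h.

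With the replicate number as a block, Dusp1 passed at 1 h (limma adjusted p = 0.00115) and 3 h (0.00389), and Dusp4 at 1 h (0.00136). So did the difference between the effects on Dusp6 (0.0498) and Dusp4 from 1 h to 3 h of hepcidin (0.0394), and no call on a phosphatase gene was lost. Of 18 pairs of arrays with the same number, 9 had a correlation of deviations over 0.1 (median 0.105, range -0.00542 to 0.246). The 36 pairs with different numbers had a median of -0.037 (range -0.219 to 0.174), and 12 of 12 arrays correlated best with their own number. That is a hint of pairing from the data, not from the design, since no label says what the numbers share.

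Signs turned in 19 cases, all in log2 differences that passed nowhere. With median centring Dusp3 in PBS over time was 0.0032. With 1 array left out, Dusp7 at 1 h ranged from -0.132 to 0.0325 (also 0.0286) and Dusp10 at 1 h from -0.0753 to 0.173 (also -0.00918). The difference between times ranged from -0.173 to 0.000772 for Dusp2, from -0.242 to 0.0706 for Dusp4 and from -0.145 to 0.104 for Dusp10 (also 0.0379 and 0.00253). In PBS over time Dusp1 ranged from -0.0518 to 0.298, Dusp8 from -0.0909 (also -0.0692) to 0.1, Dusp16 from -0.121 (also -0.0295) to 0.10 and Dusp3 from -0.0555 to 0.0651 (also 0.0328 and 0.000335). In hepcidin over time Dusp1 ranged from -0.254 to 0.00477.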

Other observations

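The PBS arrays also differed between 1 h and 3 h in 3 genes of the MAP kinase lists, chosen after their values were seen. Fos, a subunit of AP-1, was higher at 3 h by 0.89 on the log2 scale (SE 0.14, limma adjusted p = 0.0234), Spred1, an inhibitor of Ras signalling, by 0.50 (SE 0.08, adjusted p = 0.0242), and Mapk8, which encodes JNK1, was lower, at -0.40 (SE 0.07, adjusted p = 0.0319). The Fos difference between PBS times, 0.89, stands beside its hepcidin difference at 1 h, 0.88.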
